A study of Rattus norvegicus with 98 samples.

Results

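The ubiquitous windows outside broad domains are 1 kb windows of the Rn5 rat genome that carried H3K27ac in nearly every brain library while lying under no broad peak. A library occupied a window if its peaks covered 500 bp or more of it, and the window was kept when it was occupied in at least 88 of 92 libraries (95% or more) and overlapped no peak of 5 kb or wider in any of them. Of 2747754 windows on chromosomes 1 to 20, 284178 were occupied in at least 1 library, 16637 were ubiquitous and 16354 remained after 283 were removed for a broad peak. The windows kept were therefore 0.595% of all windows, 5.75% of those ever occupied and 98.3% of the ubiquitous ones. They were selected on occupancy and on maximum width, so these properties are given as a description. Of the 16354 windows, 6301 (38.5%) were occupied in all 92 libraries and 1819 in exactly 88, while 1621 windows just outside the limit were occupied in exactly 87. On the width side, 47 windows had a widest peak of 4900 bp and were kept, and 42 ubiquitous windows had a widest peak of 5000 bp and were not.

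Male Long-Evans rats, 2 months old, received fluoxetine at 18 mg per kg body weight with their water for 6 weeks (FT) or water alone (Sham), and H3K27ac chromatin immunoprecipitation and sequencing (ChIP-seq) was run on micropunches of each brain region with a single antibody lot. Tissue of 10 animals was pooled for each replicate, and there were 2 replicates per treatment in 21 of the 24 regions used here. The regions arc and MPOA had 3 libraries each and PVN had 2, which gave 46 Sham and 46 FT libraries. Since each replicate number of a treatment stands for a single pool of animals punched in every region, the 92 libraries came from 4 pools, and p-values over libraries measure the spread between these libraries and not between animals. With 2 pools against 2, an exact two-sided permutation test cannot give a p below 0.333.

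Acetylation of lysine 27 on histone H3 is laid down by the coactivators p300 and CBP at promoters and enhancers in use. Enhancers differ strongly between cell types, whereas promoters of genes that every cell needs keep the mark across tissues. Brain regions differ in their neurons and in their share of glia, and in such bulk tissue fewer cells with the mark cannot be told apart from less of the mark per cell. An Rn5 annotation and genome were not used here, so loci are given by position, without genes or sequences.

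Some lists stood apart. The lists held 19378 to 54505 peaks, with 37667 ± 8936 in Sham and 47539 ± 5179 in FT (mean ± SD, n = 46 each), and the number of reads behind them is unknown. Of the 22583 cases in which a ubiquitous window was not occupied, 61.1% were in the short lists of Sham PLC 2 (6127 windows), Sham ILC 2 (5451) and Sham MPOA 2 (2213). Sham PAG 2 lacked 1565 windows, FT NaCshell 1 lacked 1402, 74 libraries lacked fewer than 100 and 17 lacked none. Without the 3 short Sham lists the same rule kept 19640 windows, all 16354 among them, and without PAG it kept 17425, again with all 16354.

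The libraries of HB were not used to choose the windows and could be set against them. The FT library of HB occupied 16353 of the 16354 windows (99.99%), compared with 91.65% of the windows occupied in 46 to 87 libraries. The Sham library of HB occupied 65 of them (0.397%), and its peaks there had a median width of 500 bp. The Sham HB list thus stood apart from all other lists, and no comparison below uses either HB library.

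The windows formed short loci that were unevenly spaced. When adjoining windows were joined they formed 11548 loci, of which 6932 (60%) were a single window, 4427 were 2 windows, 188 were 3 and 1 was 4. The gap from a locus to the next on its chromosome had a median of 57 kb (quartiles 19 and 173 kb, 11528 gaps). Loci of windows occupied in 46 to 87 libraries, also free of broad peaks, had a median gap of 24 kb (28383 gaps). The 178 loci of ubiquitous windows under broad peaks had one of 4228 kb (158 gaps). A larger set has shorter gaps by number alone, so these medians do not compare clustering. Of the gaps between ubiquitous loci outside broad domains, 14.8% were 10 kb or shorter and 4.91% (566 gaps) were longer than 1000 kb. The nearest other locus lay at a median of 26 kb, and 26.2% of loci had one within 10 kb. A broad ubiquitous window lay within 10 kb of 80 loci (0.693%). With only 178 loci of such windows, a small share follows from their number. Whether the 2 kinds lie nearer or farther than their numbers imply was not tested. At 40.2% of loci both flanking windows were occupied in fewer than 46 libraries.

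Density differed between chromosomes. There were 5.95 ubiquitous windows outside broad domains per Mb on average, with the highest densities on chromosome 10 (12.1 per Mb), chromosome 12 (9.73) and chromosome 20 (8.67) and the lowest on chromosome 4 (3.68) and chromosome 2 (4.09). The density of all windows occupied in 46 or more libraries followed the same pattern, with 38.9 per Mb on chromosome 10 and 12.7 on chromosome 4, so that the ubiquitous windows made up 27.6% to 33.2% of them on every chromosome. Of 2759 bins of 1 Mb, 793 (28.7%) held none, and the densest 10% of bins held 40.2% of the ubiquitous windows outside broad domains. The densest bins were chr3:14000001-15000000 with 50 windows, chr1:205000001-206000000 with 48 and chr16:20000001-21000000 with 46.

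The longest gap, chr4:67692001-133268000, ran for 65576 kb. Only 60 of its windows (0.0915%) were occupied in any library, compared with 10.3% of all windows, and 8 were occupied in 46 or more. Gaps of 27869 kb at chr13:1943001-29812000 and 20845 kb at chr2:20292001-41137000 were also nearly empty, with 1.09% and 0.628% of their windows occupied in any library. The 3 loci farthest from any other were chr13:1942001-1943000, at 27869 kb, chr15:74335001-74336000, at 6605 kb, and chr4:173007001-173009000, at 3995 kb. Isolation did not go with a poor rank at the second of these, whose peak had a median rank of 1285.5 by maxScore and was present in all 92 libraries. The other 2 were present in 91 libraries each and had median ranks of 11121 and 4922.

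Peaks over these loci stayed under the 5 kb limit by the rule but were wider than the typical peak of their lists. The median width of a whole list was 1489 bp in Sham and 1639 bp in FT. On these windows it was 2035 and 2220 bp (means of library medians, n = 46 each). The need to cover 500 bp of a window favours wide peaks. The median width per locus had a median of 2100 bp (quartiles 1900 and 2300 bp, range 1000 to 4300 bp, n = 11548). By window the median was 2200 bp, against 1800 bp at windows of 46 to 87 libraries and 3000 bp at ubiquitous windows with a broad peak, where the width limit fixed part of the difference. Peaks that each cover more than 500 bp of the same 1 kb window overlap by construction, so a shared stretch is largely built in. The stretch shared by the peaks of all libraries that occupied the window had a median length of 933 bp (lowest 3 bp). It was 500 bp or longer at 90.1% of loci. The outer extent over all libraries had a median of 2700 bp. The standard deviation of the peak centre over libraries had a median of 103 bp (quartiles 76.6 and 151 bp). The longest locus was chr1:90515001-90519000, with 4 windows, a median width of 3800 bp and a centre SD of 818 bp. The 188 loci of 3 windows tied for second, and the first of them by position were chr1:9754001-9757000, with 3 windows and a median width of 3800 bp, and chr1:14514001-14517000, with 3 windows, a median width of 2600 bp and a centre SD of 92.2 bp.

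These loci took the top of nearly every list. Peaks were ranked by maxScore, the highest filter score within a peak, with rank 1 the best. The median rank per window was 5546 (quartiles 2680 and 9133), compared with 18134 for windows of 46 to 87 libraries and 3711 for ubiquitous windows with a broad peak. In the median library 93.8% of the 1000 best-scoring peaks lay on these windows (range 74.6% to 95.4%, n = 92), although peaks on them were only 24.9% of the list (21.2% to 49.8%). A peak that scores poorly is more likely to be missing from a short list, so choosing windows for occupancy favours good ranks. The comparison with less occupied windows is therefore a description. The rank was not uniform among loci. At 707 loci (6.12%) the median rank was 1000 or better, and at 3140 (27.2%) it was past 10000.

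**Figure D1:**
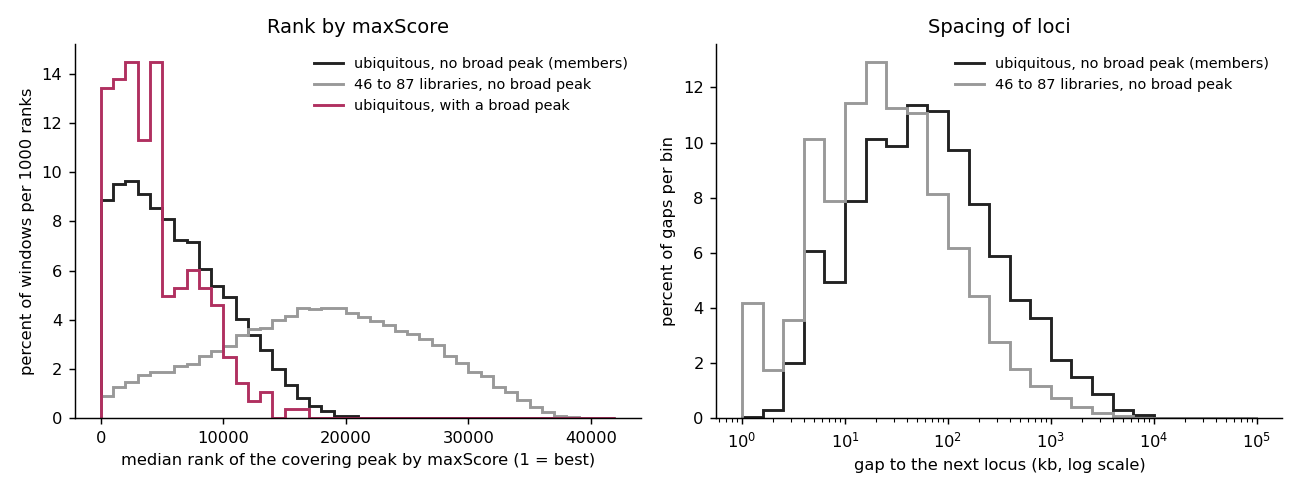
The left panel plots the median rank by maxScore of the peak over each window (x axis, 1 is the best) against the percent of windows per 1000 ranks, and the right panel the gap between neighbouring loci in kb on a log scale against the percent of gaps per bin. Black lines are the 16354 ubiquitous windows outside broad domains, with a median rank of 5546 and a median gap of 57 kb; grey lines are windows of 46 to 87 libraries, with 18134 and 24 kb; the red line is the 283 ubiquitous windows with a broad peak.

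Better ranks went with longer loci and fuller occupancy. The median rank was 9194.5 for loci of 1 window, 3674.5 for loci of 2 and 941 for loci of 3, with median widths of 2000, 2300 and 2800 bp. Each locus was represented by its window with the best median rank, so a longer locus takes the best of more windows. Covering adjoining windows also calls for wide peaks, so the links of length with rank and width are partly built in. Windows occupied in exactly 88 libraries had a median rank of 10574, and those occupied in all 92 had one of 2974.8. With the loci split by rank into 4 equal groups, from the best group to the poorest the median width went from 2300 to 1900 bp, the centre SD from 87.9 to 121 bp and the distance to the nearest locus from 20 to 33 kb. These are descriptions across loci, which share libraries and lists. The link between rank and occupancy is partly built in, since poorly ranked peaks are more easily missing from short lists.

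The best-ranked locus was chr13:100744001-100746000, with 2 windows. Its peak ranked from 1 to 10 in the 46 Sham libraries and from 1 to 13 in the 46 FT libraries, with a median of 2 in both, and its shared core was 1971 bp of a median width of 2300 bp. The treatments overlapped fully there. The locus chr1:79606001-79608000 followed, with a median rank of 2 in Sham (1 to 28) and 3.5 in FT (1 to 59). The next were chr20:5998001-6001000 (median rank 4), chr1:154721001-154723000 (5), chr4:182899001-182902000 (7) and chr20:7320001-7323000 (7). None of the 6 was ever wider than 3200 bp. At the other end, chr1:88734001-88735000 had a median rank of 28353, chr2:176179001-176180000 one of 25929.8 and chr9:7528001-7529000 one of 25322.5. Peaks there were 1200, 1400 and 1200 bp wide in the median, and the best rank in any library was 3018.5, at the last of them. Ranks that are not whole arise where peaks tie or where the value is a median.

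Rank differed between brain regions at nearly all of these windows, all of them chosen for occupancy in nearly every library. Rank was put on a log2 scale as the rank level, log2 of 19378 (the length of the shortest list) divided by the rank, and 0 where the window was unoccupied or ranked past 19378. A difference of 1 is a 2-fold change in rank where the window is occupied and both ranks are better than 19378. With limma, 15990 of 16354 windows (97.8%) differed across the 24 regions at an adjusted p below 0.05, against 88.5% of all 54235 windows tested (those occupied in 46 or more libraries). The fitted level ranged over the regions by a median of 2.37 log2 units per window (quartiles 1.61 and 3.42), with a median residual SD of 0.389. The range was 3 or more at 5463 windows (33.4%) and under 1 at 873 (5.34%).

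PAG, the periaqueductal grey, stood apart. Of its 1000 best-scoring peaks, 76% and 76.7% lay on ubiquitous windows outside broad domains in the Sham libraries and 75.7% and 74.6% in the FT libraries, whereas no library of another region was below 86.2%. The median rank over these windows was 8140.25 and 7450 in Sham PAG and 8562 and 8657.5 in FT PAG, against at most 7166.5 elsewhere. All 4 libraries therefore gave the same picture, and there was no overlap with any other library. Of the 1000 best peaks of a PAG library, 7.1% to 9% lay on windows occupied in fewer than 46 libraries, compared with at most 1.5% elsewhere. The fitted level was lowest in PAG for 5316 of the 16354 windows (32.5%), followed by Snt, the nucleus of the solitary tract, for 2013 (12.3%). It was highest most often in arc, for 1824 windows (11.2%), and in PAG itself for 1466 (8.96%). Without PAG the number of windows that differed across regions was 15865 (97%, against 87% of all windows tested).

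**Figure D2:**
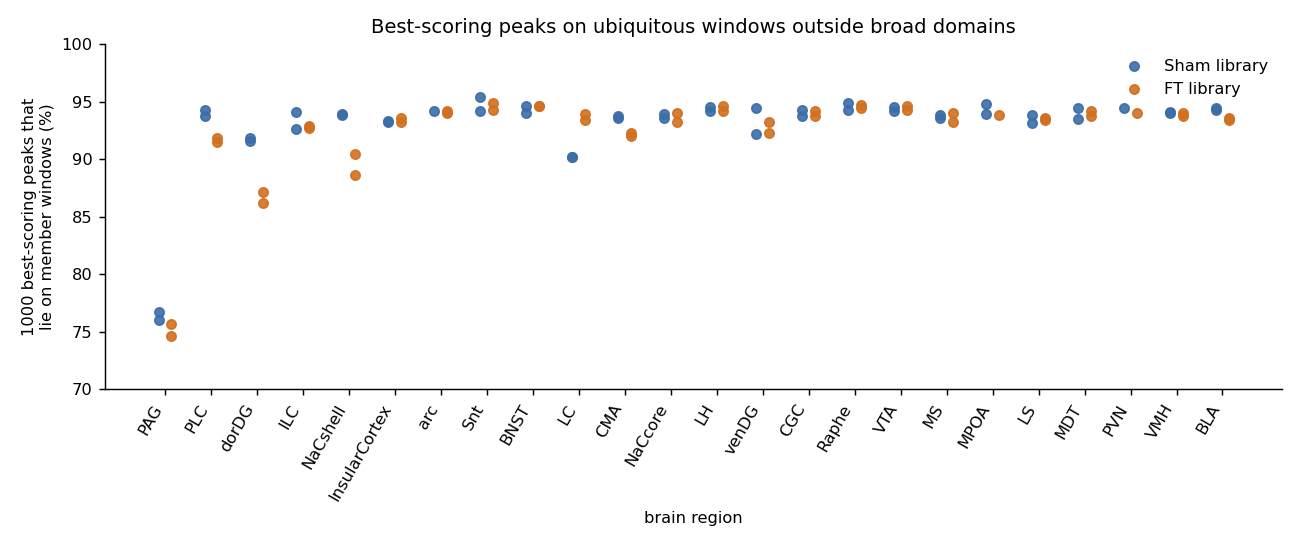
Each point is 1 library, blue for Sham and orange for FT, and the y axis is the percent of its 1000 best-scoring peaks that lie on ubiquitous windows outside broad domains (the axis starts at 70%). Regions are ordered by their median rank level over these windows, lowest at the left; the 4 PAG libraries lie at 74.6% to 76.7% and all others at 86.2% or above.

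The locus with the highest F across regions, chr1:274344001-274345000 (F = 83.8, limma adjusted p = 7.27e-39), had its best ranks in PAG. There it ranked 57 and 76 in Sham and 41 and 52 in FT. In LC, the locus coeruleus, it ranked 192 and 235 in Sham and 1018 and 956.5 in FT. In BNST it ranked 19014 and 25048.5 in Sham and 17645 and 18506.5 in FT. The libraries of these regions did not overlap, and the cortical regions PLC, ILC, CGC and InsularCortex lay between. A similar order held at chr11:65429001-65430000 (F = 77.8), with 84 and 121 in Sham PAG and 30 and 67 in FT PAG against 17625 to 23670.5 in NaCcore.

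The other 2 loci of this kind had the reverse order for PAG. At chr2:135511001-135512000 (F = 79.3) the ranks in Snt were 496, 632, 849 and 610, and those in PAG were 13469, 13864, 14295 and 15537.5. At chr10:2800001-2801000 (F = 77.6) they were 2033, 2040, 2018 and 1623 in Snt and 17181.5, 18310, 21303 and 23980.5 in PAG, and the window was unoccupied in both Sham PLC libraries.

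Brainstem and telencephalon differed in both directions. The brainstem mean was taken over 5 regions (VTA, PAG, Raphe, LC and Snt) and the telencephalon mean over 13, from cortex, septum, striatum, amygdala and dentate gyrus. The level was higher in brainstem at 5293 windows (32.4%), against 32.9% of all windows tested, and lower at 6502 (39.8%), against 29.8% (limma, adjusted p below 0.05). The median difference, brainstem minus telencephalon, was -0.07 over these windows and near 0 (-0.0025) over all windows tested. A difference of at least 1 was reached at 1144 windows in favour of brainstem and 1550 in favour of telencephalon. These counts were not set against all windows tested. Leaving out PAG gave 5782 windows called higher and 6187 called lower, together 73.2% of these windows against 61.4% of all windows tested.

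The largest brainstem excess was at chr9:8961001-8963000. The rank ran from 7 to 117 with a median of 23.5 in the 20 brainstem libraries, and from 114 to 3504.5 with a median of 838 in the 51 of 52 telencephalic libraries that occupied it. The difference in level was 4.68 (SE 0.16, limma adjusted p = 2.07e-37). The groups overlapped by a single brainstem library, Sham PAG 2 at rank 117. The next were chr1:82613001-82615000, with median ranks of 9 (3 to 964) and 384.5 (12 to 2568) and a difference of 4.30, and chr4:12455001-12458000, with 41.5 (9 to 100) and 720.5 (42 to 2068) and a difference of 3.79. The groups overlapped at both. At chr1:82613001-82615000 the ranks in PAG were 604 and 356 in Sham and 964 and 909 in FT. In MS, the medial septum, they were 30 and 12 in Sham and 39 and 23 in FT. LH, the lateral hypothalamus and in neither group, ranked at 17 to 66 there. On percentiles of the full list the first and the third of these loci were not called (limma adjusted p = 0.194 and 0.223). Percentiles are linear in rank, so they hardly move between good ranks, and an unoccupied library counts as the bottom of the list. The first locus was unoccupied in Sham PLC 2 and the third in Sham PLC 2 and Sham ILC 2. Lost calls on percentiles at well-ranked loci, here and below, therefore cannot decide whether their ranks differ.

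The largest telencephalon excess was at chr2:284034001-284036000. Its rank ran from 6921.5 to 39070 with a median of 19860 in brainstem, and from 37 to 7241 with a median of 440 in telencephalon. The difference in level was -4.94 (SE 0.18, limma adjusted p = 6.95e-36), with its best ranks in dorDG, the dorsal dentate gyrus (221 and 98 in Sham, 40 and 37 in FT). At chr5:176093001-176095000 the median ranks were 2647.5 in brainstem and 62 in telencephalon (difference -4.94, not called on percentiles, limma adjusted p = 0.0596), and at chr4:231281001-231282000 they were 21338 and 1043.5 (difference -4.36). The last locus separated the groups completely, at 14636 or poorer in brainstem and 8747.5 or better in telencephalon.

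**Figure D3:**
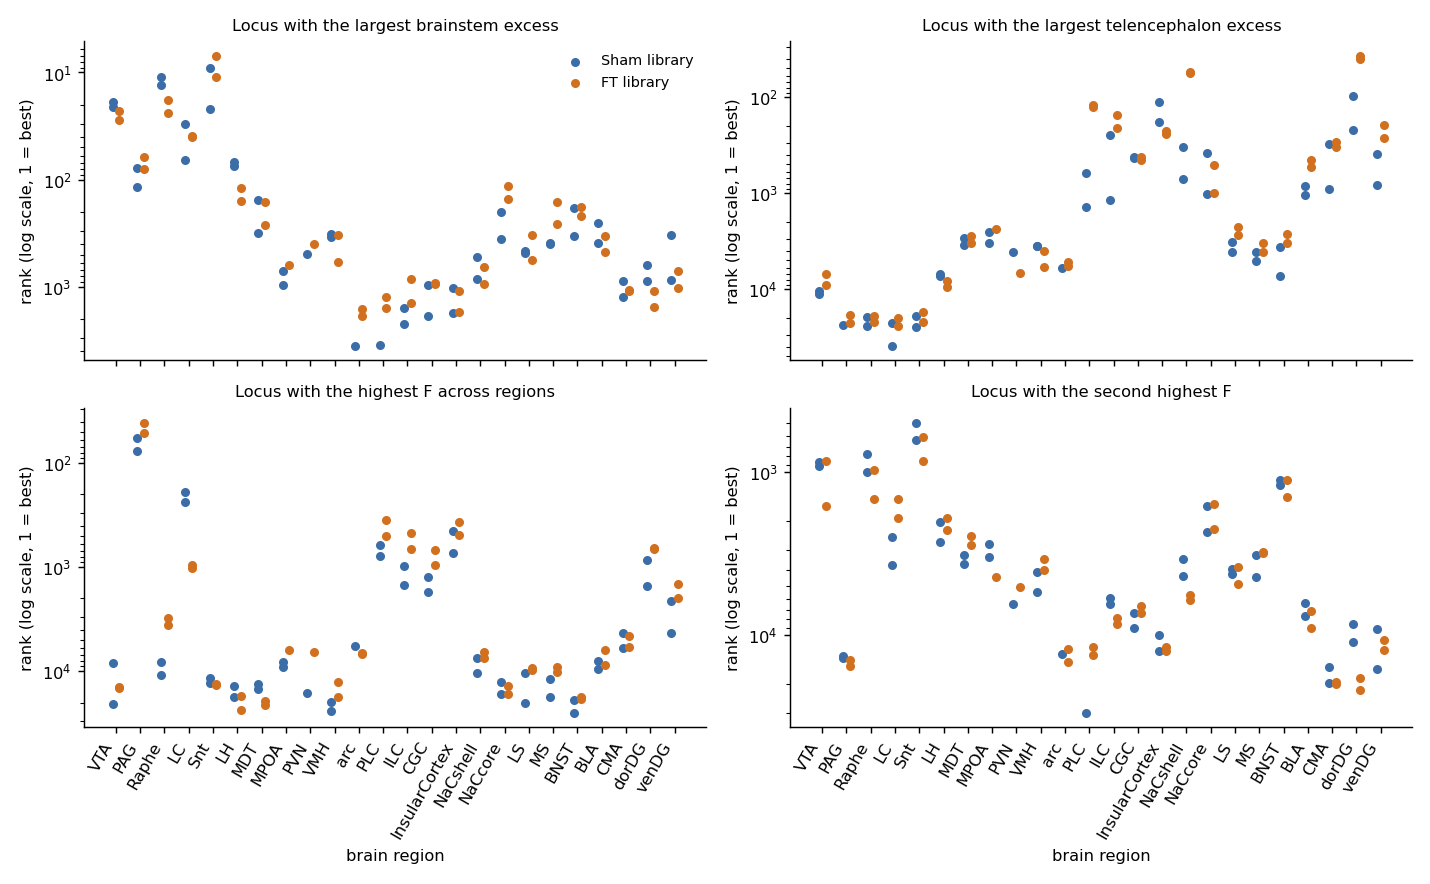
Rank by maxScore (y axis, log scale, inverted so that rank 1 is at the top) in each library of 24 regions for 4 loci, blue for Sham and orange for FT; a library in which the locus was unoccupied has no point. The upper panels show chr9:8961001-8963000, best in the 5 brainstem regions at the left, and chr2:284034001-284036000, best in the telencephalic regions at the right; the lower panels show chr1:274344001-274345000, with PAG at ranks 41 to 76, and chr2:135511001-135512000, with PAG at 13469 to 15537.5.

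Between FT and Sham the rank of these windows differed in both directions by small amounts. The level was higher in FT at 2753 windows (16.8%), against 16.4% of all windows tested, and lower at 1776 (10.9%), against 6.18% (limma with region as a factor, adjusted p below 0.05). The median difference, FT minus Sham, was 0.0004 over these windows and 0.00094 over all windows tested. Among the windows called, the median size of the difference was 0.32 where FT was higher and 0.30 where it was lower. A difference of 1 or more was reached at 10 windows that were higher and 9 that were lower, counts that were not set against all windows tested. Taken by pool over the 21 complete regions, both FT pools lay above both Sham pools at 28.4% of windows (30% of all windows tested) and below both at 25.5% (24.1%). The median level over the windows was 1.851 and 1.764 in the Sham pools and 1.835 and 1.831 in the FT pools, so that the FT pools lay between the Sham pools.

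The count of these calls depended on the libraries and on the scale. With the number of peaks in each list as a covariate, 255 windows were higher and 453 lower, together 4.33% of these windows against 2.4% of all windows tested. With the percentile in the full list in place of the rank, 10718 were higher and 16 lower, together 65.6% against 77% of all windows tested. The count fell to 2868 without FT replicate 1 (17.5%, against 12.8% of all windows tested). It fell to 1752 without FT replicate 2 (10.7%, against 8.87%), so the share over all windows tested fell as well. Without Sham replicate 2, which includes the 3 short lists, the count was 4858 (29.7%, against 20%), with 2219 higher and 2639 lower.

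The shift differed in sign between regions. The median difference over the windows was above 0 in 13 of 24 regions and below 0 in 10. It was highest in PLC (0.15), LC (0.14) and ILC (0.14), and lowest in NaCshell (-0.26) and dorDG (-0.215). In PLC and ILC the rise rested on the short second Sham list of each region: the median level was 1.79 and 1.194 in Sham PLC against 1.736 and 1.72 in FT PLC, and 1.896 and 1.391 in Sham ILC against 1.829 and 1.821 in FT ILC. Both FT libraries of these regions lay below the first Sham library. In dorDG the median rank over these windows was 5545.25 and 5998.5 in Sham and 7148 and 7166.5 in FT, and 91.8% and 91.6% of the 1000 best peaks lay on them in Sham against 87.1% and 86.2% in FT. In NaCshell the percentages were 93.9% and 93.8% in Sham and 88.6% and 90.4% in FT, and in LC they were 90.2% and 90.2% in Sham and 93.4% and 93.9% in FT. The treatments did not overlap in any of these 3 regions, each with 2 libraries a group, and the difference between regions was not tested.

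The locus with the largest rise in level under FT was chr20:13139001-13141000. Its rank was 300 in the median Sham library (94 to 1535, n = 46) and 116 in the median FT library (50 to 1063, n = 46). The FT mean level was above the Sham mean in 24 of 24 regions, by 1.11 overall (SE 0.1, limma adjusted p = 1.3e-12). In VTA, for example, it ranked 872.5 and 1066.5 in Sham and 517 and 283 in FT. This locus stayed called without either replicate of either treatment and with list length as a covariate.

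The other 4 loci that were highest in FT rose in 20 to 23 of 24 regions. At chr5:176093001-176095000 the median rank was 733 in Sham and 325 in FT (difference 1.10, SE 0.18), at chr7:11501001-11503000 it was 1991.5 and 855.5 (1.07, SE 0.14), at chr4:243523001-243525000 it was 2871 and 1648 (1.06, SE 0.16) and at chr9:16705001-16707000 it was 45 and 24 (1.02, SE 0.14). Of the 46 Sham libraries, chr4:243523001-243525000 was occupied in 43 and chr5:176093001-176095000 in 45, and the rest entered at a level of 0. The ranges of Sham and FT overlapped at each of these 4 loci. The first of them was no longer called with list length as a covariate (0.55, limma adjusted p = 0.0998). On percentiles of the full list it also lost its call (limma adjusted p = 0.143), as did chr9:16705001-16707000 (limma adjusted p = 0.281). Percentiles hardly move between ranks as good as those of the latter, so its lost call cannot decide whether the ranks differ.

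The largest fall was at chr2:134265001-134266000, where the size of the difference depended on the Sham replicates. The median rank was 7259.75 in Sham (17 to 23392) and 15881.5 in FT (644 to 32479.5, 44 of 46 libraries occupied), and the difference was -1.53 (SE 0.3, limma adjusted p = 0.000142). Its best ranks were 17 in Sham PLC 2 and 21 in Sham ILC 2, which are short lists, while the first Sham replicates of these regions ranked it at 787.5 and 2672. The difference was -2.39 without Sham replicate 1, -0.78 without Sham replicate 2 and 0.09 with list length as a covariate (limma adjusted p = 0.869).

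The fall at chr9:81437001-81438000 was spread more evenly. The rank was 2154.5 in the median Sham library (479 to 7274) and 4319.25 in the median FT library (1317 to 14460.5), and FT was lower in 24 of 24 regions, by 1.06 (difference -1.06, SE 0.13, limma adjusted p = 2.11e-08). In CGC, where both treatments ranked it best, the ranks were 531 and 479 in Sham and 1317 and 1391 in FT. It was called in all the alternatives run for it.

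At chr17:55394001-55396000 the median rank was 43.5 in Sham and 95 in FT (difference -1.48, SE 0.22). At chr3:35185001-35186000 it was 839 and 2484 (-1.27, SE 0.19), which was not called with list length as a covariate (-0.53, limma adjusted p = 0.118). At chr5:53085001-53087000 it was 120.5 and 328.5 (-1.17, SE 0.25). The last difference was -0.75 without Sham replicate 1, -1.87 without FT replicate 1 and -0.53 without FT replicate 2, and the first and the last of these 3 settings ended the call. On percentiles neither chr17:55394001-55396000 nor chr5:53085001-53087000 was called (limma adjusted p = 0.223 and 0.231). Percentiles hardly move between ranks as good as theirs, so these lost calls cannot decide whether the ranks differ.

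**Figure D4:**
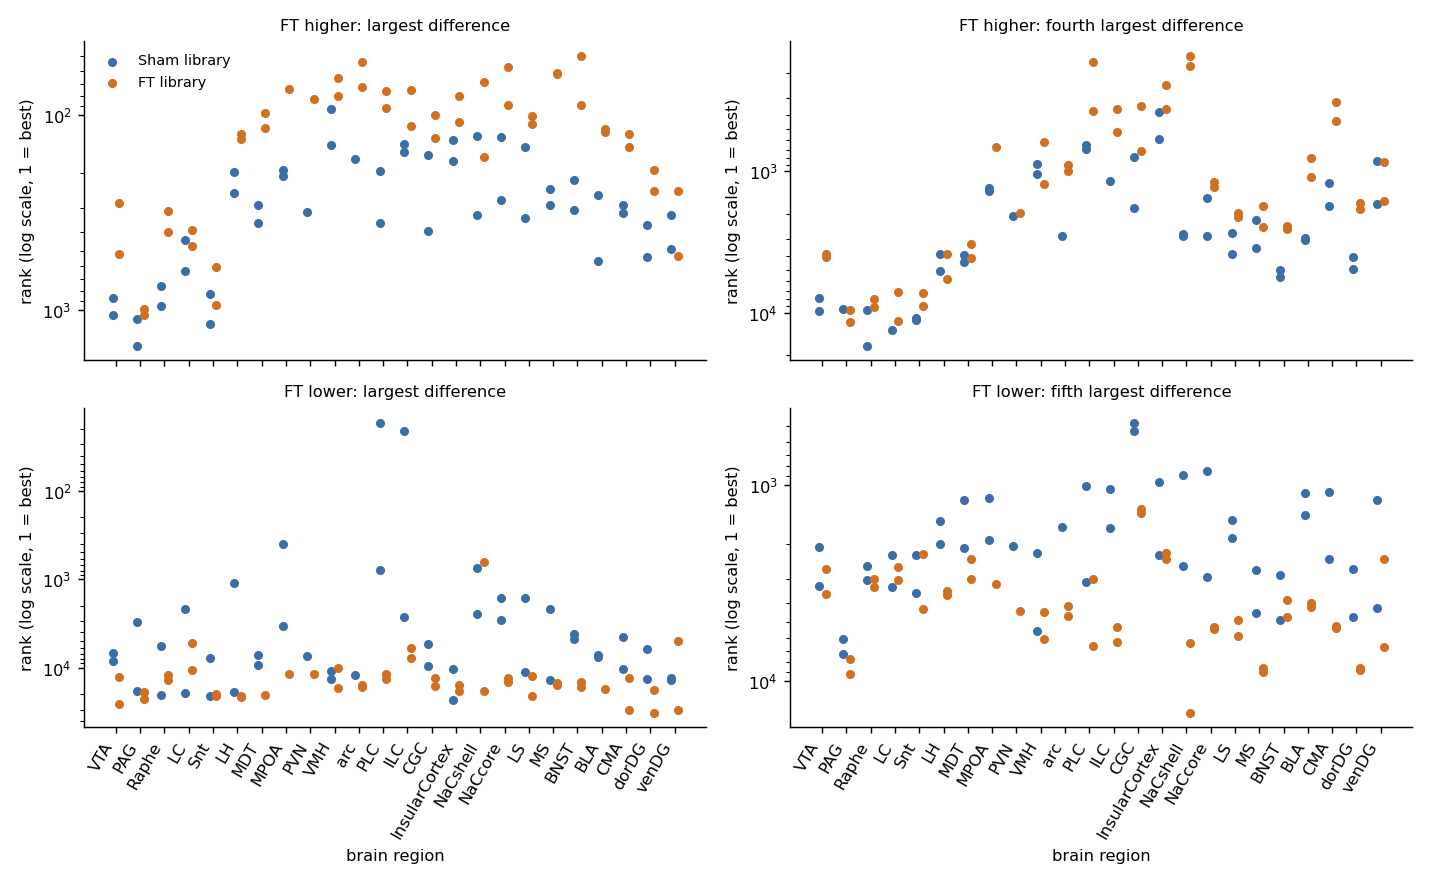
Rank by maxScore (y axis, log scale, rank 1 at the top) in each library of 24 regions for 4 loci, blue for Sham and orange for FT. FT points lie higher at chr20:13139001-13141000 (upper left) and chr4:243523001-243525000 (upper right) and lower at chr9:81437001-81438000 (lower right); at chr2:134265001-134266000 (lower left) the best ranks, 17 and 21, are the Sham points of PLC and ILC.

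Peaks on these windows were wider in FT. The median width per library was 2035 ± 200 bp in Sham (1400 to 2300 bp) and 2220 ± 95.7 bp in FT (1800 to 2400 bp, mean ± SD, n = 46 each). The peak was wider in FT at 15982 of 16354 windows (97.7%), against 81.9% of all windows tested, and narrower at 1 (0.00611%), against 0.0774% (limma on log2 width, adjusted p below 0.05). The median difference was 0.13 on the log2 scale over these windows and 0.14 over all windows tested, with a median SE of 0.0297. By pool, the median width was 2089 and 1954 bp in Sham and 2195 and 2212 bp in FT. Both FT pools lay above both Sham pools at 96.2% of windows (80.2% of all windows tested) and below both at 0.0306% (0.856%).

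List length moved with this difference. With the number of peaks in the list as a covariate, 13 windows were called (0.0795%, against 0.12% of all windows tested), 5 wider and 8 narrower. FT lists were longer than Sham lists in 21 of 24 regions. In the 6 regions with the largest ratio of list lengths (PLC, ILC, MPOA, MS, NaCcore and BNST, log2 ratio 0.55 to 1.07) the median width difference over these windows was 0.14 to 0.41, and in the 6 with the smallest ratio (Raphe, LC, Snt, InsularCortex, arc and venDG, -0.10 to 0.12) it was -0.03 to 0.03. Without the 3 short Sham lists 15731 windows were wider (96.2% called in either direction, against 80.7% of all windows tested). With only the 19378 best peaks of each list 15951 were (97.5%, against 78.2%). The latter setting drops peaks but keeps the remaining widths as called in the full lists, so it cannot separate width from list length. The part of sequencing depth or enrichment in the list lengths was not tested.

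**Figure D5:**
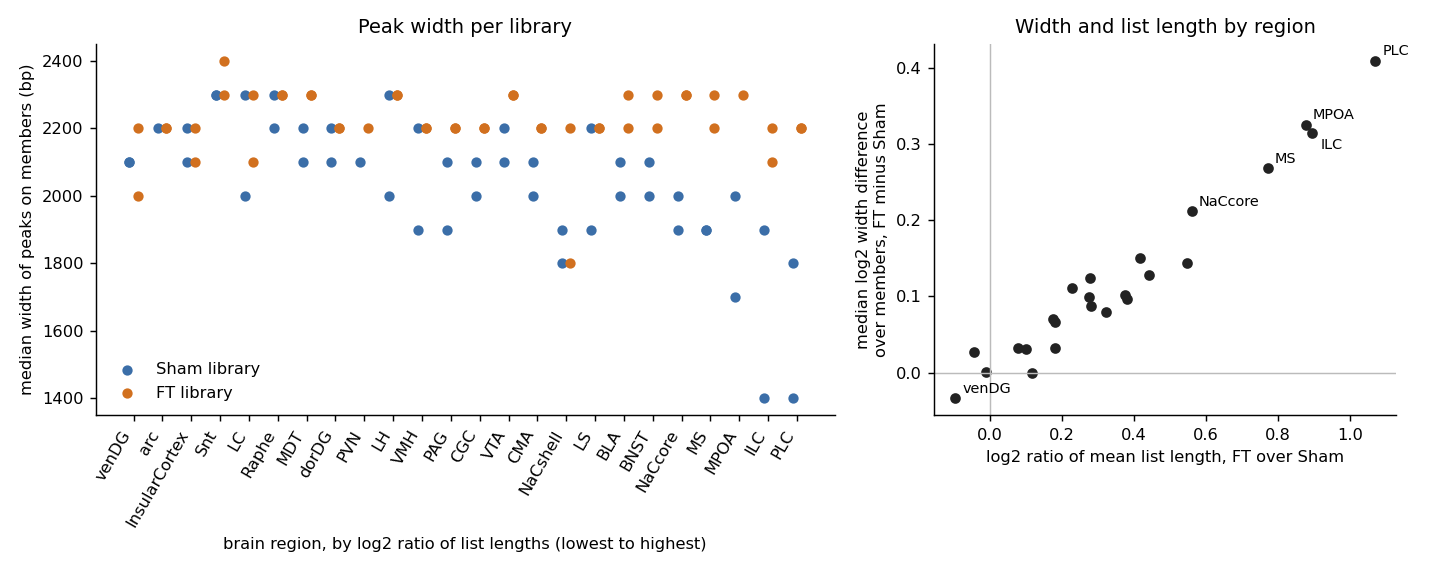
The left panel plots the median width in bp of the peaks on ubiquitous windows outside broad domains in each library (blue Sham, orange FT; the axis does not start at 0), with regions ordered by the log2 ratio of mean list length, FT over Sham. The right panel plots the median log2 width difference over the windows, FT minus Sham, against that ratio, 1 point per region; PLC lies at a ratio of 1.07 and a difference of 0.41, and venDG at -0.10 and -0.03.

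The largest width difference was at chr18:30707001-30708000. The peak there was 1800 bp wide in the median Sham library (800 to 4400 bp, 43 libraries) and 4100 bp in the median FT library (1500 to 4400 bp, 46 libraries), a log2 difference of 0.76 (SE 0.13, limma adjusted p = 3e-06). Its centre varied by an SD of 1220 bp. At chr19:70104001-70105000 the median width was 1200 bp in Sham and 2300 bp in FT (0.64, SE 0.091), and at chr3:60316001-60317000 it was 1600 and 3000 bp (0.61, SE 0.12, and 0.38 without Sham replicate 2). None of the 3 was called with list length as a covariate, with limma adjusted p values of 0.222, 0.274 and 0.706. The single locus that was narrower, chr9:7528001-7529000, was 1200 bp in the median Sham library and 1100 bp in the median FT library (-0.08, SE 0.032, limma adjusted p = 0.0234). It lost its call without Sham replicate 1, without FT replicate 1 and with list length as a covariate.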

How the data were processed

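H3K27ac ChIP-seq peak lists of 94 libraries were used. The authors aligned reads to Rn5 with BWA (per the labels' processing notes), called peaks in each library with DFilter and deposited 1 list per library. The deposited maxScore and normalised tag count are scores. The authors' −log10 p-value and the false discovery rate, deposited as a percent, were used only in checks. Starts were read as counting from 0. Depth is not given.

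Windows of 1 kb were defined as in the opening. Ranks by maxScore and log2 widths were fitted with limma 3.58.1 in R 4.3.3 (region and treatment as factors, trend), with Benjamini-Hochberg adjustment over 54235 windows. The study counted reads per peak, which these lists do not hold. The fit was tested on simulated data with independent noise in each library. The simulation held no pool effects, no difference in list length and no floor at 0, so it cannot show error rates under this design. Alternatives were leave-out fits, list length as a covariate, percentiles, tag counts, equal-size lists, a sign test and a replicate block. By the study's methods the same number marks libraries handled together, so the block was run. Correlations of same-numbered Sham and FT deviations over the windows were -0.213 to 0.519 (mean 0.0804), over 0.1 in 8 of 21 regions.

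Loci named are those with the 6 best and 3 poorest ranks, the 5 largest FT differences in rank level and 3 in width in each direction, 4 highest F, 3 largest brainstem differences in each direction, 3 longest and 3 most isolated. The windows, lists and tests were chosen with earlier results of these data known. The 4 input libraries were not used.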

Additional observations from a re-analysis of the deposited data

Results flagged for a closer look

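The median rank level over the ubiquitous windows outside broad domains separated both FT from both Sham libraries in 11 of the 21 regions with 2 libraries per treatment, with opposite signs. The values here are differences between means of library medians, not the medians of window differences given above. FT was higher in 6 regions, by 0.19 in LC, 0.12 in BNST, 0.09 in VTA (0.0905) and Raphe (0.0855), 0.034 in InsularCortex and 0.0275 in MS. In MS the FT libraries (1.904 and 1.908) lay barely above the first Sham library (1.903), and the second was at 1.854. FT was lower in 5, with differences of -0.31 in dorDG, -0.23 in NaCshell, -0.09 in CMA (-0.0945), -0.0575 in PAG and -0.021 in BLA. With 2 libraries against 2, an exact two-sided permutation test cannot go below 0.333, so no single region can pass a threshold, and the difference between these regions was not tested.

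The FT library of HB, which entered no comparison, occupied 16353 of the 16354 windows.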

How the results depend on the processing

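The number of windows kept was 16354 and became 6301 when all 92 libraries were required, 29483 when any overlap counted as occupied and 9937 when 750 bp were needed. Leaving out a replicate gave 14707 to 22895. Windows called for rank under FT (4529) were 1752 to 4858 over the fits without a replicate, 708 with list length as a covariate, 10734 on percentiles and 1329 by the exact sign test over regions. Their shares were 10.7% to 29.7%, 4.33%, 65.6% and 8.13%, against 8.87% to 22.9%, 2.4%, 77% and 6.1% of all windows tested. Those called for width (15983) were 12445 to 16171 without a replicate (76.1% to 98.9%, against 55.1% to 83.2%). With list length as a covariate they were 13 (0.0795%, against 0.12%). Those called across regions (15990) were 15292 to 16139 without a replicate (93.5% to 98.7%, against 82.3% to 88.2%). Those called between brainstem and telencephalon (11795) were 10678 to 11961 without a replicate (65.3% to 73.1%, against 56.1% to 62.8%). On percentiles they were 6242 (38.2%, against 52.3%). Among windows occupied in all libraries, a smaller set by construction, the counts were 2075, 6221, 6257 and 4749. The shares of that set were 32.9%, 98.7%, 99.3% and 75.4%, against 22.5%, 82%, 88.5% and 62.7% of all windows tested. At chr2:134265001-134266000 the rank difference turned to 0.09 (0.0884) with list length as a covariate. The cause of these changes was not tested.

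With a replicate block the counts were 4334 for rank under FT, 15886 for width, 16079 across regions and 11867 between brainstem and telencephalon, each within 1.5 times the count without it. The shares were 26.5%, 97.1%, 98.3% and 72.6%, against 20.8%, 79.6%, 88.9% and 62.9% of all windows tested. Fits without PAG and without the 3 short Sham lists were chosen after seeing the data. Depth is unknown, 4 pools of animals stand behind all libraries, and the lists hold no reads per window, so rank and width were used as the measures.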
